A study of Homo sapiens with 6 samples.

Results

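TFPI and 5 other genes of the tissue factor pathway were examined in REH, a human cell line from B-cell precursor acute lymphoblastic leukemia in which ETV6 is fused to RUNX1. The other genes were TFPI2, F3, THBD, F2R and PLAUR. Members were the probes from the Agilent catalogue whose RefSeq accession maps to these 6 genes, which gave 6 of the 19721 genes named on the array and 7 of its 57176 probes, with 2 for TFPI and 1 for each other gene. Expression was measured on 6 one-color arrays, 3 from cells given a short hairpin RNA (shRNA) that is non-targeting (control) and 3 from cells given an shRNA against the fusion (knockdown). All 6 samples were REH cells transduced with lentivirus and sorted for green fluorescent protein. Per the study's methods, the control hairpin was also an ETV6 sequence, but did not hit the fusion transcript, and the knockdown hairpin lies in the ETV6 part of the fusion. The ETV6 allele that is not in the fusion is deleted in REH. The replicates were biological triplicates of a single cell line with a single hairpin for each group, and n = 3 per group throughout. These genes were chosen with this contrast already known, so their own differences are given as a description, with no p-value.

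Tissue factor, the product of F3, is the membrane receptor that binds factor VIIa and starts blood coagulation by activating factor X. TFPI, tissue factor pathway inhibitor, is a Kunitz-type protease inhibitor that blocks factor Xa and the tissue factor and factor VIIa complex, and it is best known from endothelial cells and platelets. Thrombin made by the cascade signals through protease-activated receptors such as F2R, and it turns to an anticoagulant role when it binds thrombomodulin, the product of THBD, which activates protein C together with its receptor PROCR. PLAUR, the urokinase receptor, gathers plasminogen activation, the start of clot lysis, at the cell surface.

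The promoters of TFPI and PROCR are shown because these were the inhibitor and the protein C receptor whose probes were lower on every knockdown array. Each run covers 250 bases before to 50 bases after the gene's start, read 5′ to 3′ on the gene's strand, from RefSeq (GRCh38.p14). The capitals mark the core letters of an ETS-type motif, GGAAGT. The positions are chr2:187554386-187554685 on the minus strand for TFPI and chr20:35171822-35172121 on the plus strand for PROCR.
TFPI: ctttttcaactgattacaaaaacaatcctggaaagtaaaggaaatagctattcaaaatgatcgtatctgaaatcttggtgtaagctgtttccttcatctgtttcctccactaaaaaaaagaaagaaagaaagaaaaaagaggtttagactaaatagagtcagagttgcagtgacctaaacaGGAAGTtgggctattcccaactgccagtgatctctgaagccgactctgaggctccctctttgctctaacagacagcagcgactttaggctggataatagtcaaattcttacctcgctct
PROCR: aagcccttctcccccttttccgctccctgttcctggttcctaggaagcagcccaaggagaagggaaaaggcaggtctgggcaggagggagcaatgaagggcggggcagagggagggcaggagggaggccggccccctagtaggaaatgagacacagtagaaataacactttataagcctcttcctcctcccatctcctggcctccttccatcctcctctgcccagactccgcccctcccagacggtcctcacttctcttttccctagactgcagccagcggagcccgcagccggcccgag
The letters searched on both strands were TGTGGT and TGCGGT, the core of RUNX-type motifs, and GGAAGT. These letters were chosen after the sequences had been seen. The TFPI window held 1 match, to GGAAGT, which starts 69 bases before the gene's start, and no match to the RUNX-type letters. The PROCR window held 0 matches. GGAAGT occurs in 22.8% of all 35116 promoter windows of this length in the table, TGTGGT in 13.1% and TGCGGT in 7.29%. Any of the 3 occurs in 37.7% of these windows. Promoter entries were found for 4 of the 6 members, and of these PLAUR also held 1 match to GGAAGT, while F3 and TFPI2 held 0 of the 3 motifs. THBD and F2R were not matched. SPINT1, a Kunitz inhibitor whose probe was higher in knockdown, has 2 windows in the table, and 1 of them held a match to GGAAGT on the opposite strand, 72 bases before the start.

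Values below are normalized probe intensities on a generalised log2 scale. It nears plain log2 at high intensity and shrinks differences between dim values. A probe was retained when at least 2 of 3 arrays of a group put it above a threshold taken from the negative controls, and the threshold ran from 5.66 to 6.15 over the arrays. Different probes bind with different strength, so a probe is compared between groups but not with another probe. The median raw intensity per array was 66 to 75, against 42.3 to 48.0 for the negative controls, and pairwise correlations between arrays across probes ran from 0.986 to 0.996. The retained ETV6 probe gave 7.92, 8.05 and 8.37 in control and 7.50, 7.46 and 7.29 in knockdown, a difference of -0.70 with an adjusted p of 0.0514 by limma. The ETV6 groups did not overlap, but the call was missed, and whether this probe lies within the fusion transcript is not given in the sources used here. None of the 5 retained RUNX1 probes was called.

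TFPI was lower on every knockdown array. Both of its probes passed the filter. The probe for RefSeq transcript NM_006287, which encodes the alpha form with the third Kunitz domain and a basic tail, gave 9.40, 9.14 and 8.94 in control and 6.999, 6.75 and 6.85 in knockdown. Its lowest control array lay 1.95 above its highest knockdown array. The group means were 9.16 ± 0.23 (SD, n = 3) and 6.87 ± 0.12 (SD, n = 3), a difference of -2.29 with a standard error of 0.14, or 4.90-fold on this scale. In raw terms the same spots read 655, 579 and 540.5 in control and 162, 120 and 124 in knockdown. After the scanner software's background subtraction, the ratio of the groups' geometric means was 6.74. Fewer TFPI-expressing cells and less TFPI RNA per cell cannot be told apart in these bulk samples.

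The probe for NM_001032281, the transcript of the beta form that is held on the membrane by a lipid anchor, gave 8.08, 7.84 and 7.60 in control and 6.23, 6.04 and 6.00 in knockdown. These groups did not overlap either. The means were 7.84 ± 0.24 (SD, n = 3) and 6.09 ± 0.12 (SD, n = 3), a difference of -1.75 with a standard error of 0.14. Its raw intensities were 272.5, 243.5 and 223 in control and 100, 81 and 77 in knockdown, so the knockdown values stood close to the filter threshold, and all 6 spots were still flagged well above background. The ratio of the geometric means after background subtraction was 5.79. The alpha and beta transcripts share exons, and the probes' own sequences were not used here, so it is not known which of the transcripts each probe can bind.

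The difference was seen in each numbered pair of arrays. For the alpha probe, knockdown minus control was -2.40, -2.39 and -2.09 in replicates 1, 2 and 3, and for the beta probe it was -1.86, -1.80 and -1.60. To see whether both probes changed by the same amount, the beta reading was subtracted from the alpha reading within each array, which sets no level of a transcript against the other. On the generalised log2 scale this within-array difference was 1.32 ± 0.02 (SD, n = 3) in control and 0.78 ± 0.07 (SD, n = 3) in knockdown. On log2 of the background-subtracted signals it was 1.55 ± 0.05 (SD, n = 3) in control and 1.32 ± 0.13 (SD, n = 3) in knockdown. It was smaller in knockdown by an unequal amount on the 2 scales, and this was not tested. Among the 27490 retained probes, the alpha probe ranked 13 and the beta probe 41 from the most lower difference, which describes the values that chose this gene.

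**Figure D1:**
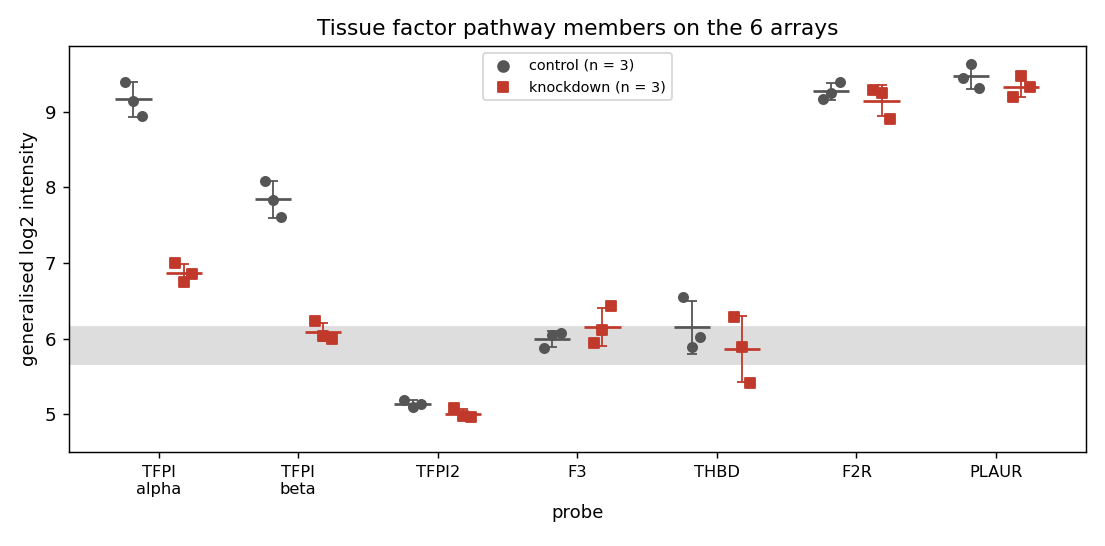
Generalised log2 intensity (y axis) of the 7 member probes (x axis) on the 3 control arrays (gray circles) and the 3 knockdown arrays (red squares), with the mean and the SD as bars, and the range of the filter threshold over arrays, 5.66 to 6.15, as a gray band. The 2 TFPI probes are separated between groups, the groups of F3, THBD, F2R and PLAUR overlap, and TFPI2 lies under the band on every array.

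TFPI2, a second Kunitz-type inhibitor that acts mainly on plasmin and on the tissue factor and factor VIIa complex, was not retained. Its probe read 5.19, 5.09 and 5.14 in control and 5.08, 4.97 and 4.96 in knockdown, and 0 of 6 spots were flagged well above background, so no fold is given. F3 itself was dim. It read 5.87, 6.05 and 6.07 in control and 5.93, 6.11 and 6.42 in knockdown, a difference of 0.16 with a standard error of 0.14. The F3 groups overlapped. Its raw intensities were 71 to 97, and all 6 spots were flagged well above background. THBD was also near the threshold, at 6.55, 5.89 and 6.02 in control and 6.29, 5.89 and 5.41 in knockdown, a difference of -0.29 with a standard error of 0.25. The spread within each THBD group, 0.35 and 0.44 (SD, n = 3), was larger than the difference, and 2 of 3 spots in each group were well above background.

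Both receptors were bright. F2R, the thrombin receptor, read 9.17, 9.24 and 9.39 in control and 9.29, 9.24 and 8.91 in knockdown, a difference of -0.12 with a standard error of 0.13. Its pairs did not share a direction, being 0.12 in replicate 1 and -0.48 in replicate 3. PLAUR read 9.45, 9.63 and 9.31 in control and 9.19, 9.46 and 9.33 in knockdown, a difference of -0.14 with a standard error of 0.12. For F3, F2R and PLAUR the difference was of the size of its standard error, with overlapping groups, which does not show that levels were equal. Leaving out 1 array at a time gave 0.03 to 0.27 for F3, -0.50 to -0.06 for THBD, -0.19 to -0.0036 for F2R and -0.21 to -0.05 for PLAUR.

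In all, 6 of the 7 member probes were retained, standing for 5 of the 6 genes. Of these, 2 were called at an adjusted p under 0.05 by limma with Benjamini-Hochberg adjustment, both from TFPI and both lower. Over all 27490 retained probes, 1.74% were called, 1.28% lower and 0.458% higher. The same 2 member probes had groups that did not overlap, against 18.9% of the 27425 retained probes with a value on every array. Since the members were chosen by this contrast, nothing is read from these counts. With the replicate number as a block, 1041 of the retained probes were called in place of 478.

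Next, other genes of coagulation, its inhibitors, clot lysis and thrombin signaling were read from the same fit. These 8 lists held 91 genes, with 117 named probes for 90 of them. A total of 66 probes of 55 genes were retained, and 37 probes were not above background on any array. Of the retained probes 3 were called (4.55%), PROCR and A2M lower and SPINT1 higher, and the median difference over the lists was -0.03, against 0.00 over all retained probes. At an unadjusted p under 0.05 there were 12 (18.2%), against 12.5% of all retained probes. These lists, too, were chosen with earlier results of these data known. Their adjusted p-values are therefore not independent tests, and nothing is read from these shares. With the replicate block 7 of the 66 probes were called, against 1041 of all 27490 retained probes. The 7 were the same 3 genes and ANXA2, SDC1, AMBP and ATP11A.

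PROCR, the endothelial protein C receptor, which presents protein C to the thrombin and thrombomodulin complex, read 7.95, 7.54 and 7.36 in control and 6.18, 6.04 and 6.33 in knockdown. The groups were apart by more than their spread. The means were 7.62 ± 0.30 (SD, n = 3) and 6.18 ± 0.14 (SD, n = 3), and PROCR fell by 1.44 on the generalised log2 scale (limma, adjusted p = 0.00512). With the slide row as a term the PROCR call was not kept, at a difference of -1.18. That term leaves control replicate 3 as the only control in the row of the knockdown arrays. With spike-in scaling PROCR stayed called at a smaller difference of -0.79 (adjusted p = 0.0369), and normexp with quantile normalization gave -0.97. The processed signal over the 75th percentile gave a larger difference of -1.86. Of the other anticoagulant genes, PROS1, which encodes the cofactor protein S, differed by -0.32 (adjusted p = 0.317) and ANXA5, a protein that covers exposed phosphatidylserine, by 0.23 (adjusted p = 0.55). The PROS1 difference was -0.67 with the processed signal over the 75th percentile. Without control replicate 1 the ANXA5 difference was 0.10, and with spike-in scaling it was 0.59. That scaling moved the median of all retained probes to 0.25. SERPINC1, antithrombin, was retained and not called. Thus 1 of 4 retained anticoagulant probes was called, and 8 further probes of this list were under the filter.

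**Figure D2:**
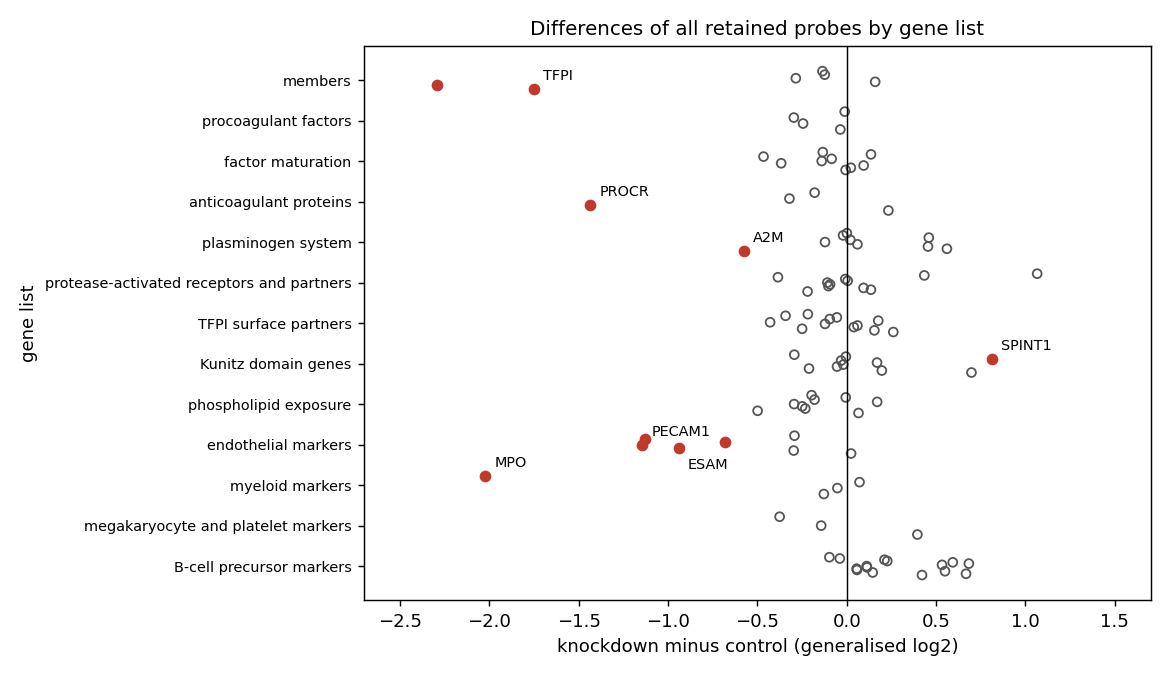
Knockdown minus control on the generalised log2 scale (x axis) for every retained probe of the members, of the 8 pathway lists and of the 4 marker lists (y axis), with called probes filled in red and named and the others open. The 2 TFPI probes lie at -2.29 and -1.75, PROCR at -1.44, A2M at -0.57 and SPINT1 at 0.81, and the open points of the pathway lists lie between -0.50 and 1.07.

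Among the soluble procoagulant factors, 4 of 20 probes were retained and none was called. F8, F13A1 and F12 differed by -0.30, -0.24 and -0.04, with adjusted p from 0.574 to 0.936 by limma. These values were unsteady, as F8 came to -0.07 without control replicate 3, F13A1 to -0.02 without control replicate 2 or knockdown replicate 1, and F12 to 0.07 without control replicate 1. F8 came to -0.75 with the slide row as a term, where control replicate 3 is the only control beside the knockdown arrays. F7 and F10, whose products are the ligand and the substrate of tissue factor, were under the filter, as were F2, F5 and F9. The enzymes and carriers that modify or export these factors were mostly bright. All 9 of their probes were retained and none was called. TPST2, a tyrosine sulfotransferase, differed by -0.47 (adjusted p = 0.122), was called without knockdown replicate 1 (adjusted p = 0.0359) and came to -0.09 with spike-in scaling. MCFD2, which carries factors V and VIII out of the endoplasmic reticulum, differed by -0.37 and -0.14 on its 2 probes (adjusted p = 0.144 and 0.624), and the first came to -0.01 with spike-in scaling.

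In the plasminogen system, 1 of 9 retained probes was called. A2M, alpha-2-macroglobulin, which traps plasmin and many other proteases, read 7.18, 7.27 and 7.35 in control and 6.73, 6.63 and 6.71 in knockdown. The groups did not overlap, and A2M fell by 0.57 (SE 0.10, limma adjusted p = 0.0277). This call was kept in 8 of 16 alternative settings, and it was lost without any 1 of the arrays other than knockdown replicate 1, with adjusted p from 0.0555 to 0.142. The difference was -0.62 to -0.53 on leaving out an array. The call was also lost with no filter (-0.57, adjusted p = 0.085), with a term for the row on the slide (-0.66) and with spike-in scaling (-0.22, adjusted p = 0.32). ANXA2, which binds plasminogen and its activator at the cell surface, read 11.25, 11.61 and 11.56 in control and 11.80, 12.19 and 12.11 in knockdown, a difference of 0.56 (adjusted p = 0.131). With the replicate block its adjusted p was 0.0217, and with spike-in scaling the difference was 0.91 (adjusted p = 0.122). The second retained ANXA2 probe differed by 0.45 (adjusted p = 0.487), and PLGRKT, a plasminogen receptor, by 0.46 (adjusted p = 0.164). PLAU, the ligand of PLAUR, was retained on 1 of its probes and was not called, while PLAT and PLG were under the filter.

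Of the 11 retained probes for other protease-activated receptors and their signaling partners, none was called. The largest difference was that of RGS16, a regulator of G-protein signaling, at 1.07 (adjusted p = 0.435). It read 8.35, 7.56 and 7.76 in control and 10.22, 8.52 and 8.13 in knockdown, and the groups overlapped. Within replicates 1, 2 and 3 the difference was 1.87, 0.95 and 0.37, with an adjusted p of 0.0897 under the replicate block. Without knockdown replicate 1 the difference was 0.43. The second RGS16 probe differed by 0.43 (adjusted p = 0.572), and by 0.11 without knockdown replicate 1. With the processed signal over the 75th percentile this probe differed by 0.99. GNAQ, a G-protein subunit that these receptors use, differed by -0.39 (adjusted p = 0.255). Of the other receptors of the F2R family, F2RL3 was retained, with means of 9.09 in control and 9.18 in knockdown (adjusted p = 0.788), and F2RL1 and F2RL2 were under the filter.

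The surface partners of TFPI, namely heparan sulfate proteoglycans, clearance receptors and THBS1, a matrix protein, gave 12 retained probes and no call. SDC1, syndecan-1, differed by -0.43 (adjusted p = 0.473), and with the replicate block by the same amount at an adjusted p of 0.0494. Spike-in scaling gave -0.06 for SDC1 (adjusted p = 0.877), and leaving out knockdown replicate 1 gave -0.24. GPC1 differed by 0.26 (adjusted p = 0.412). The 2 retained THBS1 probes differed by -0.06 and -0.34 (adjusted p = 0.897 and 0.435). The second was well above background on 1 of 3 knockdown arrays and came to -0.17 without control replicate 3. The same probe came to -0.51 with the processed signal over the 75th percentile and to -0.70 with the slide row as a term. Among 10 retained probes of other Kunitz domain genes, SPINT1 was called. SPINT1, an inhibitor of matriptase and of the activator of hepatocyte growth factor, read 7.09, 7.002 and 7.09 in control and 7.99, 7.83 and 7.79 in knockdown, and it rose by 0.81 (SE 0.10, limma adjusted p = 0.00715). It was called in 13 of 16 alternatives, and not without control replicate 2, where the adjusted p was 0.0531, with spike-in scaling (0.0558) or with the slide row as a term. The difference in these 3 settings was 0.78, 0.84 and 0.78. AMBP, which encodes bikunin, differed by 0.70 (adjusted p = 0.223, and 0.039 with the replicate block) and by 0.44 without knockdown replicate 1, and WFIKKN1 by -0.29 (adjusted p = 0.4).

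Last of the lists were genes that place phosphatidylserine on the outer membrane, the surface on which tissue factor is most active, or bring it back. None of 9 retained probes was called. ATP11A, a flippase, differed by -0.50 (adjusted p = 0.213, and 0.0418 with the replicate block) and by -0.13 with spike-in scaling (adjusted p = 0.619). PLSCR1, a scramblase, differed by -0.29 (adjusted p = 0.525), by -0.49 without knockdown replicate 1, by -0.17 without knockdown replicate 3 and by 0.07 with spike-in scaling.

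**Figure D3:**
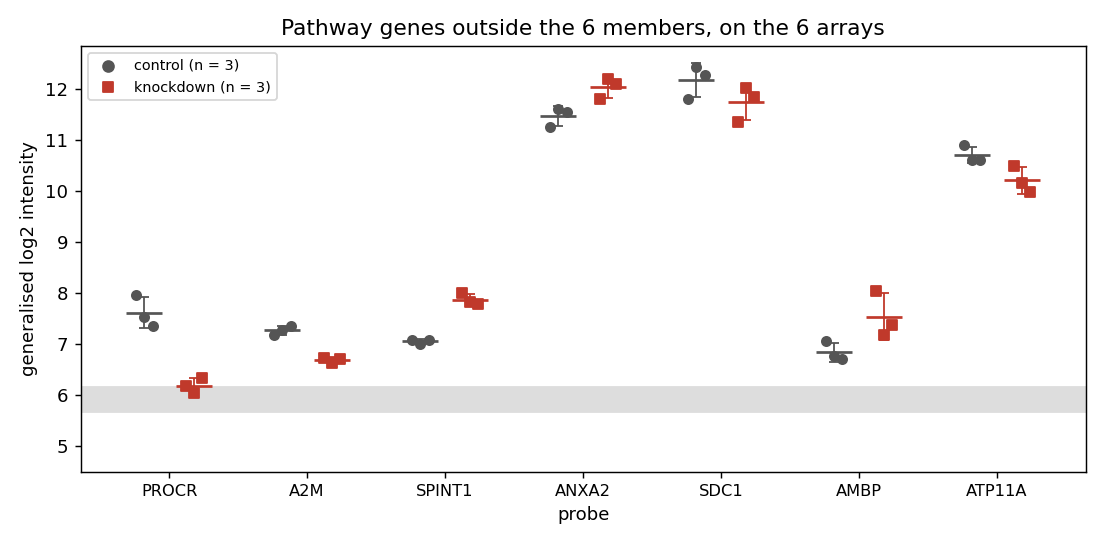
Generalised log2 intensity (y axis) on the 3 control arrays (gray circles) and the 3 knockdown arrays (red squares) for the 3 pathway genes called without a block, PROCR, A2M and SPINT1, and the 4 genes called only with the replicate block, ANXA2, SDC1, AMBP and ATP11A (x axis), with the mean and the SD as bars and the threshold range as a gray band. PROCR and A2M sit lower and SPINT1 higher on all 3 knockdown arrays, and the SDC1 groups overlap.

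The nearest genes to TFPI on chromosome 2 were read as well. Of the 3 protein-coding genes with a catalogue probe on each side, FAM171B, ZSWIM2 and CALCRL before it and GULP1, COL3A1 and COL5A2 after it, 2 of 11 probes were retained. CALCRL differed by 0.09 (limma adjusted p = 0.942), and by -0.37 without knockdown replicate 1 (adjusted p = 0.208). This CALCRL probe was near the threshold, well above background on 2 of 3 control and 1 of 3 knockdown arrays. The gene's other probes were not above background on any array. COL5A2 differed by 0.05 (adjusted p = 0.913). Over the 6 arrays, the gene symbols whose probe followed the TFPI alpha probe most closely, among 17548 ranked probes, were XIRP2, THEMIS2, SVOPL, FBLN5 and SOCS2, with Pearson's r from 0.9975 to 0.9987. All 5 had groups that did not overlap, so the split between groups takes part in each of these correlations, which are a description only. XIRP2 was well above background on 0 of 3 knockdown arrays. Its knockdown values lay under the threshold, so its correlation rests in part on background and no size is given. THEMIS2 differed by -0.81, SVOPL by -2.03, FBLN5 by -1.35 and SOCS2, a suppressor of cytokine signaling, by -1.82.

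Because TFPI and PROCR are best known from endothelium, markers of other cell types were set beside them. Of 9 endothelial genes, 7 of 11 probes were retained and 4 were called, all lower. PECAM1, which leukocytes and platelets also carry, fell by 1.14 and by 1.13 on 2 probes (limma adjusted p = 0.0463 and 0.0121), and the third PECAM1 probe was also called (adjusted p = 0.015), although 0 of its 3 knockdown spots were flagged well above background, so no size is given. ESAM, a junctional adhesion molecule, fell by 0.94 (adjusted p = 0.0148). CDH5, VE-cadherin, differed by 0.02 (adjusted p = 0.958), EGFL7 by -0.30 and TIE1 by -0.29. KDR, CLDN5, TEK and VWF were under the filter, with 0 of 6 spots of KDR and CLDN5 above background. TEK was flagged well above background on 1 of 3 control and 0 of 3 knockdown arrays. VWF was flagged on 2 of 3 control and 3 of 3 knockdown arrays. Its means were 5.61 in control and 5.74 in knockdown, higher in knockdown with groups that did not overlap. The summed background-subtracted intensity of this list was 9404 to 10484 in control and 6507 to 10451 in knockdown, and without EGFL7 1024 to 1093 and 467 to 881. Of the myeloid markers 1 of 4 retained probes was called, MPO, which fell by 2.02 (adjusted p = 0.00107), and the list summed to 18206 to 18930 in control and 3796 to 7424 in knockdown. Without MPO the myeloid sum was 424 to 506 in control and 366 to 584 in knockdown, and the other retained markers, CD14, CSF1R and ITGAM, differed by -0.13, -0.05 and 0.07. None of the 3 retained megakaryocyte and platelet probes was called, with or without the replicate block. None of the 15 retained B-cell precursor probes was called without the block, with CD22 nearest at a difference of 0.67 (adjusted p = 0.0539). With the replicate block 4 of them were called, all higher in knockdown, namely CD22, CD79B and both IGLL1 probes. Their adjusted p ran from 0.0132 to 0.0378 by limma. That block called 1041 of all 27490 retained probes, 373 of them higher. The endothelial and myeloid counts stayed at 4 and 1. CD79A, IGLL1, DNTT and RAG1, which define this cell type, were well above background on all 6 arrays, and VPREB1 was under the filter. The part of these markers in the TFPI and PROCR values was not tested.

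The arrays shared a slide, on which control replicates 1 and 2 lay in row 1 and the other 4 arrays in row 2. Within row 2, the TFPI alpha probe read 8.94 in control replicate 3 and 6.75 to 6.999 in the 3 knockdown arrays, a difference of -2.08, and the beta probe differed by -1.51. Every processing setting kept both TFPI probes lower in knockdown, at -2.71 to -1.61 for the alpha probe and -2.49 to -1.02 for the beta probe. Scaling on the spike-in spots gave the smallest differences, and it moved the median of all retained probes to 0.25. Relative to that median the alpha probe lay at -1.86. The same scaling moved PROS1 to -0.07, PLGRKT to 0.78, GNAQ to -0.03, GPC1 to 0.60 and WFIKKN1 to -0.02, and none of these was called.

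**Figure D4:**
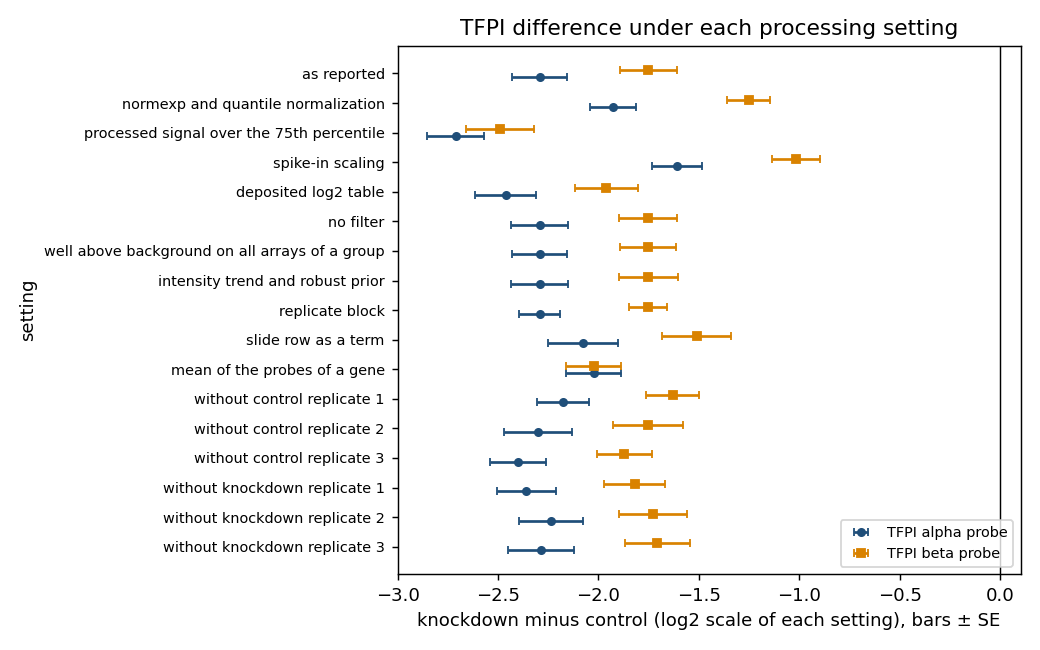
Knockdown minus control (x axis, on the log2 scale of each setting, bars ± SE) of the TFPI alpha probe (blue circles) and the beta probe (orange squares) as reported and under 16 alternative settings (y axis), where the gene mean is the same value for both. Every point lies under 0, with the alpha probe between -2.71 and -1.61 and the beta probe between -2.49 and -1.02.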

How the data were processed

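Per the labels, total RNA of 6 REH samples was labelled with Cy3. Per the file headers, the authors extracted spot intensities with Feature Extraction 10.7.1.1, and the deposited files hold median and background-subtracted intensities and other values, namely flags, not normalized between arrays. The authors also deposited normalized log2 values of 27869 probes. Here an affine calibration and inverse hyperbolic sine (the VSN model, keep quantile 0.9) were fitted to median intensities. A probe was retained above 1.1 times the 0.95 quantile of the normalized values of 308 negative controls on at least 60% of a group's arrays. Groups were compared by limma 3.58.1 in R 4.3.3, two-sided, with Benjamini-Hochberg adjustment over all retained probes at 0.05. The fit held the group only, since no block is named in the study's methods. Same-numbered arrays deviated together, with r = 0.43, 0.29 and 0.20 across probes for replicates 1, 2 and 3. Differently numbered pairs ran from -0.33 to 0.19. Control replicate 2 with knockdown replicate 3 gave 0.19, and control replicate 3 with knockdown replicate 2 gave 0.17. These are close to the 0.20 of replicate 3, so mainly replicate 1 stood apart from the others. Values with the replicate block are also given. Symbols came from RefSeq accessions for 25728 of 34134 catalogue probes. Exact permutation of 3 against 3 arrays cannot give a two-sided p under 0.1.

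Members and lists were chosen with earlier results of these data known. Named were all member probes, each list's called probes with up to 3 more of largest difference where under 3 were called, TFPI's neighbours and the 5 genes most correlated with its brightest probe. Others named were chosen after their values were seen. A few genes that the rule names are not reported here. The number of arrays limits precision. The fit was tested on simulated data.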

Additional observations from a re-analysis of the deposited data

How the results depend on the processing

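The difference of the TFPI alpha probe stayed below 0 in all 16 alternatives. It was -1.93 with normexp and quantile normalization, -2.71 with the processed signal over the 75th percentile, -1.61 with spike-in scaling, -2.08 with the slide row as a term and -2.02 for the mean of both TFPI probes. Leaving out 1 array at a time gave -2.40 to -2.18. The replicate block left it at -2.29, with a standard error of 0.10.

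Of all retained probes, 478 were called by limma, against 112 with spike-in scaling (51 lower and 61 higher, in place of 352 and 126), 224 with no filter, 227 with the slide row (207 lower and 20 higher) and 1041 with the replicate block (668 lower and 373 higher). Leaving out 1 array gave 191 to 553, the lowest without control replicate 2. It gave 282 without control replicate 1, 258 without control replicate 3, 214 without knockdown replicate 2 and 205 without knockdown replicate 3. Of the pathway probes, 3 were called, against 1 with spike-in scaling, 0 with the slide row, 7 with the replicate block and 1 to 4 leaving out 1 array, with 1 without control replicate 2. With the slide row as a term, control replicate 3 was the only control in the row of the knockdown arrays. The slide-row counts therefore rest on that array, and PROCR differed by -1.18 there. The cause of these shifts was not tested. Among single probes other than the TFPI alpha probe, 16 of 494 values changed sign, 6 of them under spike-in scaling, and none of these was called. With spike-in scaling F2R and PLAUR were higher in knockdown, at 0.21 and 0.20. Both lay under 0.25, the median of all retained probes with that scaling. PLAUR was also higher with the slide row (0.01). Probes near the negative controls, such as F3 and THBD, are limited by signal over background.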
